A study of Mus musculus with 6 samples.

Results

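The gasdermins are a family of pore-forming proteins, and their transcripts were followed here in chemically induced skin tumours of mice. The members were every non-control probe whose gene name in the array files is Gsdma, Gsdma2, Gsdma3, Gsdmc, Gsdmc2, Gsdmc3, Gsdmc4 or Gsdmd. This gave 13 probes for 8 genes, out of 56605 non-control probes with 37008 distinct gene or transcript names. RNA came from 3 tumours labelled P2ry6-/- (knockout) and 3 labelled P2ry6+/+ (wild-type), all from male mice, each read on 1 array in 1 colour. Both genotypes share the same treatment, which the labels describe for 12 mice each: DMBA, a mutagen, was put on the shaved back as 1 dose of 195 nmol. TPA, which promotes tumour growth, followed at 16 nmol 2 times weekly up to week 22. The P2ry6 receptor responds to uridine diphosphate outside the cell, and the comparison asks which transcripts differ between tumours with and without its gene. The labels give no strain, no age, no part of P2ry6 that was removed, and no statement that each tumour came from a separate mouse.

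A gasdermin consists of an N-terminal domain that can insert into membranes and a C-terminal domain that holds it inactive. When a protease cuts the linker between them, the N-terminal part assembles into pores, through which cytokines leave the cell, and the cell can die by pyroptosis. The mouse carries Gsdma paralogs side by side on chromosome 11 and Gsdmc paralogs side by side on chromosome 15, where the human genome has a single gene of each kind. Gsdma is known from epidermis and hair follicle, mutations of Gsdma3 cause hair loss in mice, and Gsdmd is cut by inflammatory caspases in macrophages. The mouse Gsdmc genes are known from gut epithelium, where type 2 cytokines induce them.

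Because paralogs can bind each other's probes, the sequences of the 60-base probes were compared first, over 91 pairs that also included the neighbouring pseudogene Gsdmcl2. In 2 pairs, at least 25 bases matched in an ungapped stretch of 30. The highest match among the other pairs was 20 of 30. The probes of Gsdmc and Gsdmc2 matched at 29 of 30 bases, and the stretches are shown with the base that differs in capitals, 5′ to 3′, because both probes could take up RNA of either gene.
Gsdmc: gtcctggatacatttgaGatattgcaccat
Gsdmc2: gtcctggatacatttgaTatattgcaccat
The probes of Gsdmc2 and Gsdmc4 matched at 27 of 30 bases, again with the differing bases in capitals.
Gsdmc2: AtgcatgttttaggcCAgtgggaataaaga
Gsdmc4: GtgcatgttttaggcTGgtgggaataaaga
The Gsdmc3 probe shared no such stretch with another member's probe. Readings of Gsdmc, Gsdmc2 and Gsdmc4 are therefore uncertain as to which paralog they report. For Gsdmc3 the comparison cannot settle this, because no probe was compared with the transcripts of paralogs.

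Of the 13 probes, 8 exceeded background clearly on all 6 arrays and were tested. They cover 7 genes, all but Gsdma3. Levels are log2 signals relative to the 75th percentile of each array, so 0 lies at that percentile. They can be compared between arrays but not between probes. The labelled knockout mean was higher at 7 of the 8 tested probes and lower at 1, against 52.9% higher over all probes tested. At 5 of them, from 4 genes, every labelled knockout tumour read above every labelled wild-type tumour. Across all 29726 probes tested, 12.0% were higher without overlap in this way. The 3 member probes near background on every array also read higher without overlap, by gaps of 0.08 to 0.19, and the 75th percentile itself was 277.1 to 299.6 units on labelled knockout arrays and 321.7 to 367.9 units on labelled wild-type arrays. Its part in the results was not tested beyond the other scalings, under which the tested Gsdma, Gsdmc, Gsdmc2, Gsdmc3, Gsdmc4 and Gsdmd probes kept their direction. In the linear model (limma, Benjamini-Hochberg adjusted over all probes tested) 0 gasdermin probes passed the threshold of 0.05, and 6 had an unadjusted p under 0.05 with a higher labelled knockout mean, against 7.78% of all probes. The median difference of the 8 probes was 0.88, and that of all probes tested 0.02. The 8 probes are not independent, since both Gsdma probes read 1 gene and some Gsdmc probes share sequence.

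Facts of the whole array set that bear on these values are few. Over all probes tested, 43 passed the adjusted threshold (0.145%), 17 higher (0.0572%) and 26 lower (0.0875%) in labelled knockout tumours. With the replicate number as a block 6 passed. The count was 178 without wild-type replicate 2, and 26, 20 and 13 without knockout replicates 1, 2 and 3. Wild-type replicate 2 held the most hair follicle, sebaceous and muscle signal of any array. P2ry6 itself did not read lower in the labelled knockout tumours. Its brighter probe gave 0.57, 0.70 and 0.45 in labelled knockout replicates 1, 2 and 3, against 0.38, 0.33 and -0.21 in labelled wild-type replicates (difference 0.41, SE 0.20, limma adjusted p = 0.466). Its other probe gave means of -0.70 in labelled knockout tumours and -1.24 in labelled wild-type tumours. A probe outside the removed part checks nothing, so every direction here follows the labels.

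On chromosome 15 the Gsdmc genes read higher in labelled knockout than in labelled wild-type tumours, by log2 differences of 1.17 to 1.83 over their 4 tested probes. None of the 4 passed the adjusted threshold. The share of all probes at least 2-fold higher in labelled knockout tumours was 2.32%.

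Gsdmc, the first of the cluster, was read by a probe at chr15:63608169-63608228 (mm9, minus strand). It gave 3.91, 4.17 and 4.33 in labelled knockout replicates 1, 2 and 3, against 2.91, 3.01 and 2.45 in labelled wild-type replicates. The genotypes did not overlap, and the gap between the lowest labelled knockout and the highest labelled wild-type tumour was 0.90. The means were 4.14 ± 0.21 (SD, n = 3) in labelled knockout tumours and 2.79 ± 0.30 (SD, n = 3) in labelled wild-type tumours, a 2.54-fold difference with a 95% interval of 1.80 to 3.59 (limma adjusted p = 0.111). It ranked 96 of all probes tested by p. The two-sided exact permutation test gave p = 0.1, the smallest that 3 samples against 3 allow. A second Gsdmc probe, at chr15:63636158-63636217, stayed near background on every array.

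Gsdmc3 had a probe at chr15:63689307-63689366 (mm9, minus strand) with no close match among the other probes. It gave 5.26, 5.43 and 5.75 in labelled knockout replicates 1, 2 and 3, against 4.28, 4.49 and 3.89 in labelled wild-type replicates. Again no tumour overlapped, by a gap of 0.77, and wild-type replicate 3 was the lowest. The difference was 1.26 (SE 0.22), or 2.39-fold with a 95% interval of 1.67 to 3.43 (limma adjusted p = 0.139).

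Gsdmc4, at the far end of the cluster, was read at chr15:63723278-63723337 (mm9, minus strand). It gave 2.75, 2.81 and 3.04 in labelled knockout replicates 1, 2 and 3, against 1.90, 1.82 and 1.38 in labelled wild-type replicates. The spread within each genotype was small beside the gap of 0.85 between them. The difference was 1.17 (SE 0.20), or 2.25-fold with a 95% interval of 1.63 to 3.10 (limma adjusted p = 0.128).

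Gsdmc2 was the most variable of the 4. Its probe at chr15:63656392-63656451 (mm9, minus strand) gave -0.75, -0.36 and 1.38 in labelled knockout replicates 1, 2 and 3, against -2.57, -0.73 and -1.92 in labelled wild-type replicates. Knockout replicate 3 stood above all other tumours, and the lowest labelled knockout tumour and wild-type replicate 2 were level, 0.02 apart. The difference was 1.83 (SE 0.66), or 3.56-fold with a 95% interval of 1.22 to 10.4 (limma adjusted p = 0.335; two-sided exact permutation p = 0.2). It was 1.19 without knockout replicate 3 and 2.34 without wild-type replicate 2.

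**Figure D1:**
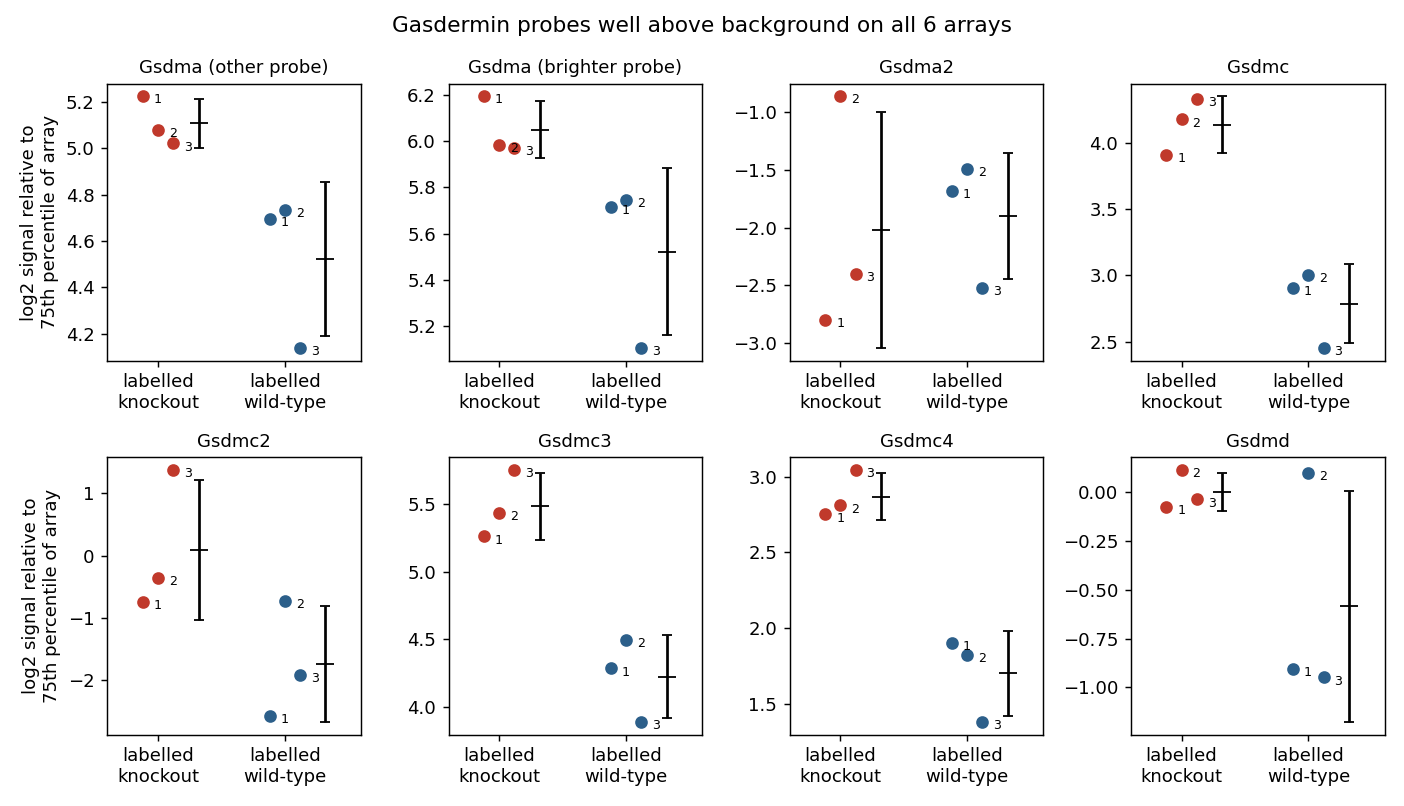
Log2 signal relative to each array's 75th percentile for the 8 tested gasdermin probes, with labelled knockout tumours (red) left of labelled wild-type tumours (blue). Points carry their replicate number, and bars are the mean ± SD of 3. Gsdma, Gsdmc, Gsdmc3 and Gsdmc4 show no overlap between genotypes, and Gsdmc2, Gsdmd and Gsdma2 do. Each panel has its own scale.

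The labelled knockout tumours kept the same order at all 4 probes, and the labelled wild-type tumours did not. All 4 orders come from the same tumours and are not independent. The Gsdmc2 probe also shares sequence with those of Gsdmc and Gsdmc4, which matched each other at only 15 of 30 bases. The part of shared sequence in the common order was not tested. Knockout replicate 3 was the highest and knockout replicate 1 the lowest of the labelled knockout tumours at Gsdmc, Gsdmc2, Gsdmc3 and Gsdmc4. Wild-type replicate 3 was the lowest labelled wild-type tumour at Gsdmc, Gsdmc3 and Gsdmc4, but not at Gsdmc2, where replicate 1 was lowest. The highest was wild-type replicate 2 at Gsdmc, Gsdmc2 and Gsdmc3, and replicate 1 at Gsdmc4.

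**Figure D2:**
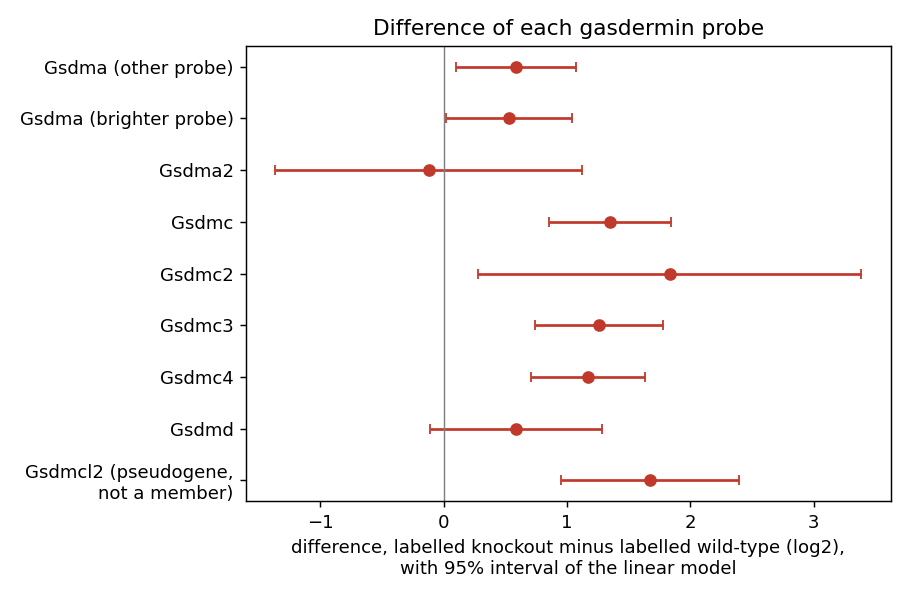
Difference of labelled knockout minus labelled wild-type tumours on the log2 scale for the 8 tested gasdermin probes and the pseudogene Gsdmcl2, with the 95% interval of the linear model. The intervals of Gsdmc, Gsdmc3 and Gsdmc4 begin at 0.70 or higher, and those of Gsdma2 and Gsdmd include 0.

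Gsdmcl2, a transcribed pseudogene between Gsdmc3 and Gsdmc4 that is no member of the list, showed a difference of like size. Its probe at chr15:63720569-63720628 (mm9) gave 0.67, 1.05 and 1.47 in labelled knockout replicates 1, 2 and 3, against -0.85, -0.06 and -0.92 in labelled wild-type replicates. The difference was 1.67 (SE 0.30, limma adjusted p = 0.144), with no overlap. An unnamed transcript that the files describe as gasdermin C-like 2 gave -2.61, -2.17 and -1.75 in labelled knockout replicates 1, 2 and 3, against -4.48, -2.31 and -4.61 in labelled wild-type replicates (limma adjusted p = 0.351). It was above background on 3 of 3 labelled knockout but 1 of 3 labelled wild-type arrays, so it was tested through the labelled knockout arrays alone and the size of its difference is uncertain. The pseudogenes Gsdmcl1 and Gsdmcl-ps stayed near background on every array.

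The coding genes beside the cluster read closer to no difference. By gene order in the RefSeq table of GRCm38.p6, used for order only, the 3 nearest on each side gave 6 genes, of which 4 were tested. They differed by -0.38 to 0.52, and all 4 overlapped between genotypes. Over all 3 gasdermin loci 14 of 18 flanking genes were tested, and 0 passed, at differences from -0.38 to 0.52. Whether the cluster differs from its flanks was not tested.

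**Figure D3:**
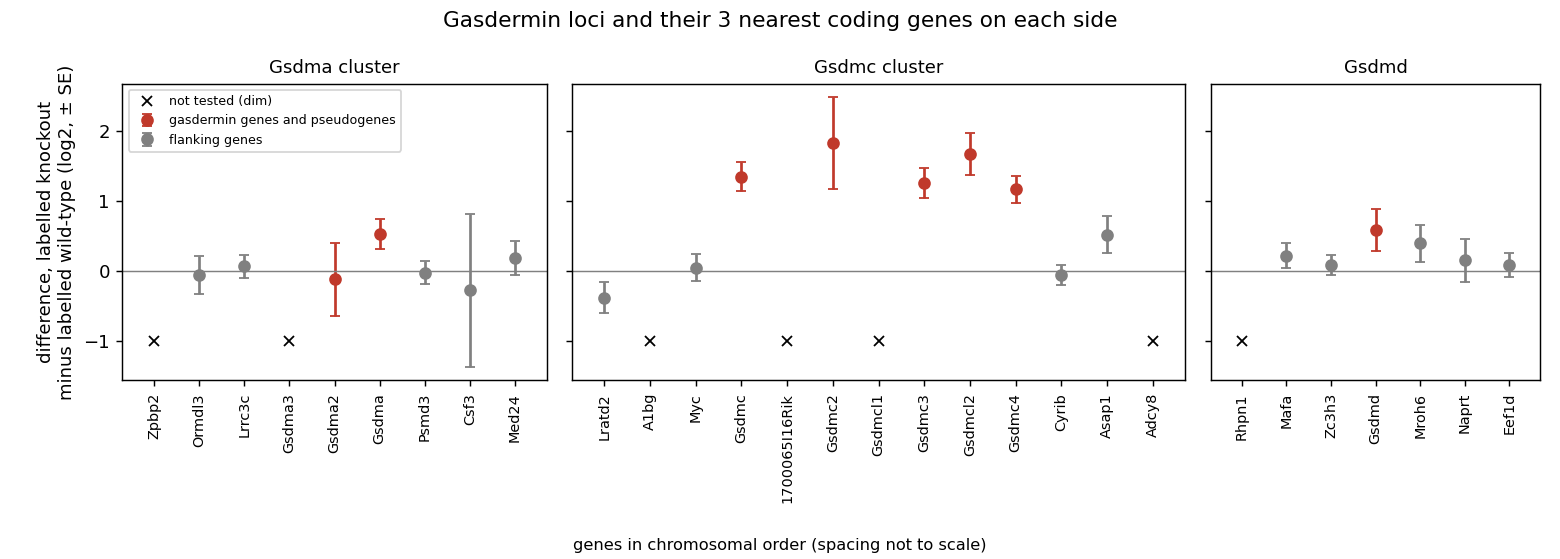
Difference of labelled knockout minus labelled wild-type tumours (log2, ± SE) for the genes of the Gsdma cluster, the Gsdmc cluster and Gsdmd (red) and the 3 nearest coding genes on each side (grey), in chromosomal order. Crosses mark genes that were too dim to test. Within the Gsdmc cluster the tested genes lie between 1.17 and 1.83, and its flanking genes between -0.38 and 0.52.

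Of the Gsdmc genes, RefSeq (GRCm38.p6) gave an upstream sequence for Gsdmc3. The Gsdmc3 probe had no close match among the probes compared, though no probe was compared with the transcripts of paralogs. The 250 bases before the Gsdmc3 start, at chr15:63878559-63878808 on the minus strand, are shown.
Gsdmc3 upstream: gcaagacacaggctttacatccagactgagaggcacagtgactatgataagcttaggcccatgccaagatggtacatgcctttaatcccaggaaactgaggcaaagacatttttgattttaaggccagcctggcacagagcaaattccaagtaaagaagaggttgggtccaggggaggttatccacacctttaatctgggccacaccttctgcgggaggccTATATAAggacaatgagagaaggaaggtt
The capitals mark TATATAA, a form of the TATA box that was added to the search after the sequence was seen. It begins 29 bases before the gene start, and 3.04% of 32851 upstream windows of this length hold it on either strand. The letters TGANTCA, with any base at N, are a wider pattern that takes in the site AP-1 binds. Neither this pattern nor TTC followed by GAA after 4 bases, which STAT6 binds, was in this window on either strand. These patterns stood in 6.75% and 5.85% of all such windows. TATAAA, in 12.4% of windows, was not in it either, and the window of Gsdma3 held none of the 4 motifs.

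On chromosome 11, Gsdma was higher in the labelled knockout tumours by a smaller amount, and both of its probes gave the same picture. The brighter probe, at chr11:98537914-98537973 (mm9), gave 6.19, 5.98 and 5.97 in labelled knockout replicates 1, 2 and 3, against 5.72, 5.74 and 5.10 in labelled wild-type replicates. No tumour overlapped, but the gap was 0.23, and wild-type replicate 3 was lowest. The difference was 0.53 (SE 0.22), or 1.44-fold with a 95% interval of 1.01 to 2.05 (limma adjusted p = 0.382). Without wild-type replicate 3 it was 0.32 (limma adjusted p = 0.544). The other probe, at chr11:98537811-98537870, gave a difference of 0.58 (SE 0.20, limma adjusted p = 0.325), also without overlap.

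The other Gsdma paralogs were weakly measured. Gsdma2 had 1 probe above background, at chr11:98519203-98519262 (mm9), with -2.80, -0.86 and -2.40 in labelled knockout replicates 1, 2 and 3, against -1.68, -1.49 and -2.52 in labelled wild-type replicates. The genotypes overlapped widely, and the difference of -0.12 had a 95% interval from -1.36 to 1.12 (limma adjusted p = 0.946). Its direction turned without knockout replicate 1 (0.27), without knockout replicate 3 (0.07) and without wild-type replicate 2 (0.08). The other 2 Gsdma2 probes stayed near background on every array. Gsdma3 was well above background on 1 array, wild-type replicate 2, where its probe at chr11:98499344-98499403 read -3.60. Its other values were -6.05, -3.90 and -4.96 in labelled knockout replicates 1, 2 and 3, against -4.15 in replicate 1 and -4.59 in replicate 3 of the labelled wild-type, and it was not tested.

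Gsdmd, the gasdermin cut by inflammatory caspases, was read at chr15:75697536-75697595 (mm9), far from the Gsdmc cluster. It gave -0.07, 0.11 and -0.04 in labelled knockout replicates 1, 2 and 3, against -0.90, 0.10 and -0.95 in labelled wild-type replicates. Wild-type replicate 2 read like the labelled knockout tumours, and the other labelled wild-type tumours read lower. The difference was 0.59 (SE 0.30, 95% interval -0.11 to 1.29, limma adjusted p = 0.469), and 0.93 without wild-type replicate 2 (adjusted p = 0.077). A second, dim probe at chr15:75695520-75695884 was well above background on 2 of 3 labelled knockout and 1 of 3 labelled wild-type arrays, and wild-type replicate 2 was again the highest of its genotype, at -3.81 against -4.91 and -4.49 in replicates 1 and 3.

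Leaving out each tumour in turn, an alternative added after the data were seen, gave 5 to 7 of the 8 probes higher without overlap. A probe without overlap on all arrays stays so when a tumour is left out. The count therefore could not fall below 5, and only its rise carries information. The 7 were found without wild-type replicate 2, where Gsdmc2 and Gsdmd joined, against 19.6% of all probes in that setting, and 6 without knockout replicate 1, where Gsdmc2 joined, against 18.0%. The 5 found without knockout replicate 2 or 3, or wild-type replicate 1 or 3, stood against 15.2%, 15.6%, 17.7% and 18.8%.

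Marker lists of other cells differed beside these values, and in tumour RNA fewer cells of a type and less RNA per cell cannot be told apart. The list of suprabasal and cornified epidermis, the layers where Gsdma is known, averaged 6.35, 6.30 and 6.07 in labelled knockout replicates 1, 2 and 3, against 5.78, 5.80 and 5.31 in labelled wild-type replicates. Labelled knockout tumours read higher for 16 of its 18 tested genes, and 0 passed. The genotypes did not overlap, and wild-type replicate 3 was lowest, as at Gsdma, Gsdmc, Gsdmc3 and Gsdmc4. Among labelled knockout tumours the list fell from replicate 1 to replicate 3, as at both Gsdma probes. Gsdmc, Gsdmc3 and Gsdmc4 had the reverse order there, rising from replicate 1 to replicate 3. The part of these layers in the gasdermin values was not tested. Hair follicle markers were mostly lower in labelled knockout tumours, at -2.44, -0.69 and -2.25, against 1.05, 2.73 and -1.33 in labelled wild-type replicates. Of 17 tested hair genes 15 were lower, and sebaceous gland markers were lower in 12 of 12. Basal keratinocyte markers overlapped, at 5.69 to 6.36 in labelled knockout and 5.79 to 6.47 in labelled wild-type tumours.

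Among blood cells, neutrophil markers averaged -0.15, 0.25 and 1.14 in labelled knockout replicates 1, 2 and 3, against 0.50, 0.50 and -0.22 in labelled wild-type replicates. Macrophage markers averaged 1.55 to 1.69 in labelled knockout tumours and 1.14 to 1.88 in labelled wild-type tumours. Both lists overlapped between genotypes. The highest array was knockout replicate 3 for neutrophil markers and wild-type replicate 1 for macrophage markers. The Gsdmd probe read -0.04 and -0.90 in these 2 tumours. Wild-type replicate 3 was the lowest array for both lists, at -0.22 and 1.14, and the Gsdmd probe was also lowest there, at -0.95. T cell and cytotoxic markers averaged -1.74 to -1.64 in labelled knockout tumours and -2.07 to -1.79 in labelled wild-type tumours. The part of these cells in the gasdermin values was not tested. Skeletal muscle and fat-cell markers averaged -3.70 to -3.43 and -2.78 to -2.67 in labelled knockout tumours, and -0.64 to 3.48 and -0.39 to 1.06 in labelled wild-type tumours. All 12 tested muscle genes were lower in labelled knockout tumours and 1 passed the adjusted threshold, while 6 of 8 tested fat-cell genes were lower and 3 of the 8 passed.

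**Figure D4:**
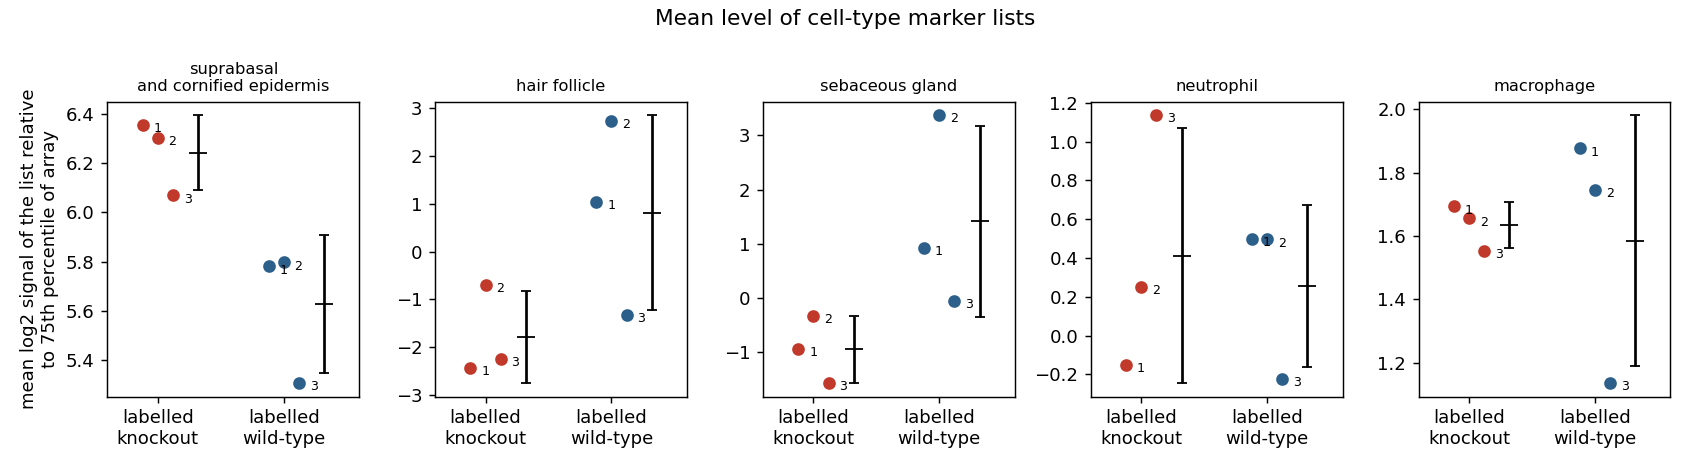
Mean log2 signal of 5 marker lists on each array, labelled knockout (red) left of labelled wild-type (blue), with replicate numbers and mean ± SD of 3. Suprabasal markers do not overlap between genotypes, at 6.07 to 6.35 in labelled knockout and 5.31 to 5.80 in labelled wild-type tumours; neutrophil and macrophage markers overlap. Each panel has its own scale.

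The rest of the pyroptosis pathway was read from 39 genes, of which 30 were tested on the brightest probe of each. Of these 22 were higher and 8 lower in labelled knockout tumours, against 49.6% higher over all named genes, with a median difference of 0.18. None passed the adjusted threshold over all probes, where 0.178% of named genes did, and 7 had an unadjusted p under 0.05, against 13.2% of named genes. Without overlap 4 were higher, against 11.0% of named genes, and 1, Gzma, was lower, against 8.08%. Gzma and Gzmb, Gzmb being named after its values were seen, were above background on every array of 1 genotype only, 2 of the 30 genes.

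Upstream of gasdermins stand inflammasome sensors and adaptors, of which 9 of 15 were tested, 7 higher and 2 lower. Aim2, a sensor of cytosolic DNA, gave -1.03, -1.33 and -0.47 in labelled knockout replicates 1, 2 and 3, against 0.91, -0.58 and 1.35 in labelled wild-type replicates. Wild-type replicate 2 overlapped with the labelled knockout tumours, and the difference of -1.50 did not pass (SE 0.50, limma adjusted p = 0.309). Another Aim2 probe differed by -0.63. Naip2, which senses bacterial secretion systems, differed by 0.76 without overlap (SE 0.26, limma adjusted p = 0.318).

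Of 10 proteases 9 were tested, 5 higher and 4 lower. The lowest p belonged to Gzma, a granzyme of cytotoxic lymphocytes, with -4.66, -5.41 and -3.19 in labelled knockout replicates 1, 2 and 3, against -3.00, -2.94 and -1.57 in labelled wild-type replicates. The fitted difference was -1.91 (SE 0.62, limma adjusted p = 0.301), with no overlap. It was above background on 1 of 3 labelled knockout and 3 of 3 labelled wild-type arrays, so it was tested through the labelled wild-type arrays alone and the size of its difference is uncertain. Casp1 and Casp4, which are among the caspases that cut Gsdmd, were named after their values were seen. Their differences were -0.36 and 0.12 (limma adjusted p = 0.743 and adjusted p = 0.907), and both overlapped. Casp1 was lowest in wild-type replicate 2 (2.96), the labelled wild-type tumour with the highest Gsdmd.

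Of cytokines released through the pores, Il18 gave 3.95, 4.10 and 3.69 in labelled knockout replicates 1, 2 and 3, against 3.59, 3.28 and 2.83 in labelled wild-type replicates. It was higher without overlap by 0.68 (SE 0.23, limma adjusted p = 0.321). Il1a differed by 0.75 (SE 0.51, limma adjusted p = 0.591), with overlap. Of all 4 cytokines and alarmins 3 were higher and 1 lower.

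The 6 regulators of Gsdmd and of membrane repair were all higher in labelled knockout tumours, by a median of 0.21. Irf1, a transcription factor of the interferon response, gave 2.11, 2.60 and 2.60 in labelled knockout replicates 1, 2 and 3, against 1.50, 1.83 and 1.48 in labelled wild-type replicates. It did not overlap and had the smallest p of the pathway genes (difference 0.83, SE 0.20, limma adjusted p = 0.213). Zdhhc9, a palmitoyltransferase, differed by 0.63 (SE 0.19, limma adjusted p = 0.280).

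Of the relatives outside the member list, 2 of 4 were tested. Gsdme, a further pore-forming gasdermin, differed by 0.13 (SE 0.41, limma adjusted p = 0.928) at its brightest probe, with overlap. Another Gsdme probe was above background on 0 of 3 labelled knockout and 3 of 3 labelled wild-type arrays, and was at least 1.61-fold brighter in labelled wild-type tumours against the dimmest measurable signal or its own, whichever was higher (limma adjusted p = 0.280). Ninj1, which ruptures the membrane after pores form, differed by -0.14 (SE 0.15, limma adjusted p = 0.754).

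**Figure D5:**
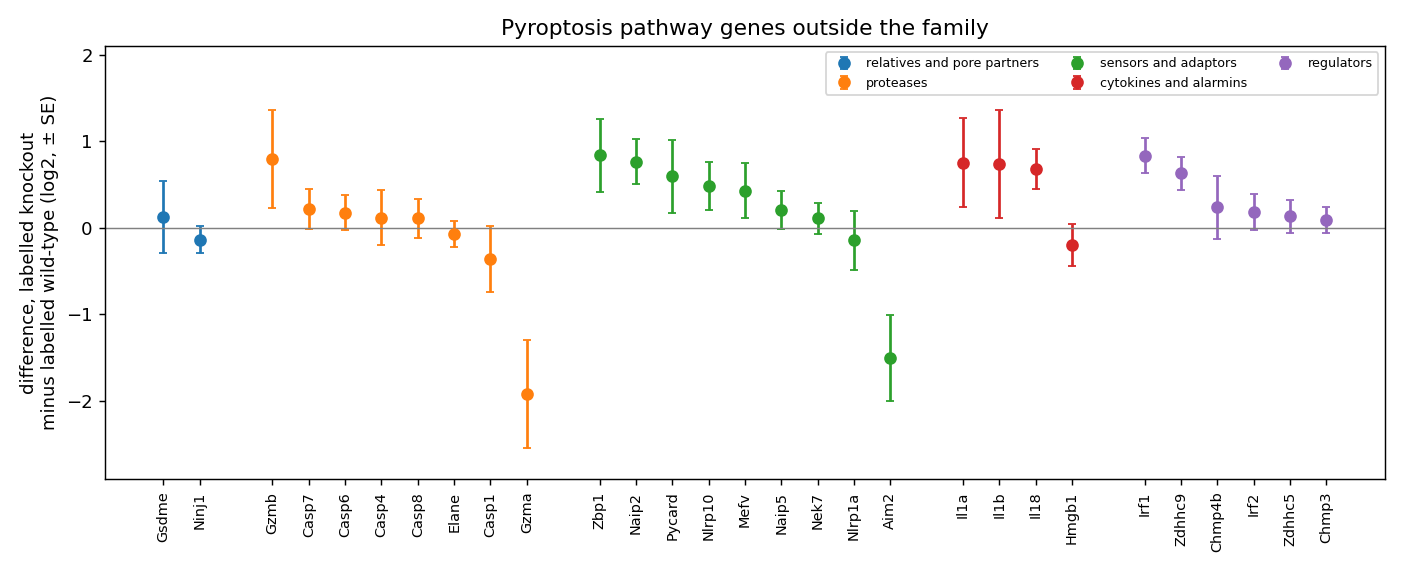
Difference of labelled knockout minus labelled wild-type tumours (log2, ± SE) for the tested pyroptosis pathway genes outside the family that are reported here, sorted within 5 lists. Irf1 and Il18 lie above 0 by 0.83 and 0.68, Gzma and Aim2 below it at -1.91 and -1.50. Gzma was above background on 1 of 3 labelled knockout arrays, so its size is uncertain, and none of the genes plotted passed the adjusted threshold.

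The genes whose pattern over the 6 arrays was most like a member's were found by the root mean square difference of the profiles after centring each gene on its own mean, among 14233 named genes above background on all arrays, members left out. Among the members themselves, Gsdmc and Gsdmc3 lay 0.07 apart on the log2 scale, Gsdmc3 and Gsdmc4 0.11, and Gsdmc and Gsdmc4 0.12. These paralogs were thus nearer to Gsdmc3 than any outside gene named below, and Gsdmc3 was nearer to Gsdmc than any. Outside the family, nearest to both Gsdma probes was Tnfrsf1b, a receptor for tumour necrosis factor, at 0.03 and 0.02 on the log2 scale. Impg1 and 2500002B13Rik came next at both. Nearest to Gsdmc outside the family were Arl4d (0.12), Npl (0.18) and Cyp4f18 (0.18), and nearest to Gsdmc3 were Mboat2 (0.15), Arl4d (0.15) and Fcna (0.17). Arl4d, a small GTPase gene, differed by 1.47 between genotypes (limma adjusted p = 0.0747). It was chosen for likeness to Gsdmc and Gsdmc3 on these arrays, so a difference near theirs follows from the choice. For Gsdmc4 they were Zfp600 (0.11), Slc25a48 (0.12) and Apol8 (0.13). The nearest profiles to Gsdmc2 lay farther off, at 0.46 for Tspan8, 0.48 for Kbtbd11 and 0.50 for Stfa2. For Gsdmd they were Aldh3b3 (0.06), Ifi30 (0.07) and Wdfy2 (0.08). Like Gsdmd they read high in wild-type replicate 2, which also follows from the choice. For Gsdma2 they were Dnm3os (0.19), Mitf (0.24) and Kif1a (0.24).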

How the data were processed

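The authors deposited linear scanner intensity per spot, made per the file headers with Agilent Feature Extraction 10.7.1.1: the processed signal is background-subtracted and detrended, with surrogate values for dim spots. Their series value table was deposited as log2 values without a stated tool; against each array's processed signal it gave r = 0.9994 or more over 56605 probes. Probe coordinates are on mm9, per the file headers; exon and UTR positions were not annotated in the tables used here.

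Flagged outlier spots (68 to 184 per array) were left out, spots of a probe averaged, and log2 signals scaled to each array's 75th percentile over probes (277.1 to 299.6 units on labelled knockout and 321.7 to 367.9 units on labelled wild-type arrays). A probe was tested if all arrays of either genotype showed it well above background; 54.2% to 59.4% of spots per array were. Saturated spots numbered 0, and precision is limited by having 6 arrays. Genotypes were compared with limma 3.58.1 in R 4.3.3 (lmFit, eBayes, two-sided, labelled knockout minus labelled wild-type), adjusted over all 29726 probes; no gasdermin probe was merged. The fit was tested on simulated data. Probes were named through RefSeq (GRCm38.p6): 32989 by accession, 10228 by symbol, 519 by synonym, and 12869 kept the array's name. P-values measure only the spread between these samples.

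Members, pathway and marker lists were chosen with earlier results of these data known. Named were every member probe, P2ry6, the 2 pathway genes of each list with the smallest p (1 of them is not reported here), and the 3 named genes nearest in pattern to each member probe that spans at least 1 on the log2 scale. Deviations of same-numbered tumours of both genotypes correlated weakly (r = 0.14, 0.24 and 0.13 for numbers 1, 2 and 3). All other pairs gave at most 0.08. The labels state no pairing, and these values do not establish one. All arrays lay on 1 slide with 1 scan time. The second number of the slide position nearly follows genotype and cannot be told apart from it. The block for slide position used the first number, so the second was not adjusted for. Alternatives were normexp (offset 50), quantile, median centring, filters, 1 probe per gene, trend and robust eBayes, array weights, the series value table, blocks for replicate number and slide position, and each sample left out.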

Additional observations from a re-analysis of the deposited data

How the results depend on the processing

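Under the 17 alternatives, the 8 tested gasdermin probes and Gsdmcl2 gave 152 values, of which 146 kept their direction and side of the threshold. With array weights 1 gasdermin probe passed, Gsdmc (difference 1.38, limma adjusted p = 0.038), as did Gsdmcl2 (1.94, adjusted p = 0.041); Gsdmc3 was at adjusted p = 0.0503 and Gsdmc4 at 0.054. Over all alternatives the adjusted p of Gsdmc lay between 0.038 and 0.314 and its difference between 1.18 and 1.46. Those of Gsdmc3 lay between 1.09 and 1.40, of Gsdmc4 between 1.01 and 1.27, of Gsdmc2 between 1.19 and 2.61, of the brighter Gsdma probe between 0.32 and 0.64, of its other probe between 0.39 and 0.69 and of Gsdmd between 0.40 and 0.93. The Gsdma2 difference turned to 0.057 with normexp and, leaving out 1 tumour, ran from -0.70 to 0.27 (0.27, 0.07 and 0.08 without knockout replicates 1 and 3 and wild-type replicate 2); the cause was not tested. With the replicate block 0 gasdermin probes passed, and Gsdmc and Gsdmc3 stood at adjusted p = 0.158 and 0.176; the block changed no call of a gasdermin or pathway gene. The count over all probes, 43, was 15 with normexp, 22 unfiltered (where the median difference of all probes was 0.18), 6 on the 27439 probes measured above background by all 6 arrays, 147 with array weights, 6 with the replicate block and 13 to 178 leaving out 1 tumour. Otherwise the cause was not tested. No pathway gene passed in any alternative run (0 of 30). The probes below background, among them Gsdma3, give no level here.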
